A study of Mus musculus with 4 samples.

Results

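Gfap and Cd44 fibrous astrocytes of the mouse deep cerebellar nuclei were picked out of single-nucleus RNA sequencing libraries by a gate on counts. A nucleus was gated as an astrocyte when at least 3 of the 6 genes Slc1a2, Slc1a3, Gpc5, Aqp4, Gja1 and Slc6a11 had a count, at most 1 of the 4 oligodendrocyte genes Mog, Mag, Opalin and Aspa had one, Gad1 and Gad2 together had at most 1 count, and the nucleus was not among those the submitters named vglut2. It was called a fibrous astrocyte when Gfap, Cd44, Ccdc3, Mamdc2 and Cnmd together had at least 2 counts. This gave 1348 fibrous astrocytes among 4934 gated astrocytes and 21494 nuclei. The comparison group was 2753 gated astrocytes with no count of the 5 marker genes, called marker-negative astrocytes here, and 833 gated astrocytes with exactly 1 such count were held apart from both.

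The libraries came from C57BL/6J mice of 2 transgenic lines, Tg[Ucn3-cre]KF31Gsat (Ucn3-Cre) and Tg(Slc17a6-icre)1Oki (vGluT2-Cre). Each line was crossed with Ai32, which makes a channelrhodopsin-EYFP fusion wherever Cre has acted, so every mouse carried a Cre transgene and the reporter. Ucn3-Cre replicate 1 was a female of 3 months whose nuclei were cleaned on an iodixanol gradient. Ucn3-Cre replicate 2 was a male of 3 months, vGluT2-Cre replicate 1 a male of 2 months and vGluT2-Cre replicate 2 a female of 2.5 months, all cleaned on a sucrose cushion. Line and age therefore cannot be told apart, and neither Cre is directed at astrocytes. The libraries held 4291 to 6587 nuclei with a median of 1835 to 3328.5 counts per nucleus, and 0.334 to 0.425% of their barcodes also occurred in another library. That touched at most 1 fibrous astrocyte per library.

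Fibrous astrocytes are the astrocytes of white matter and fibre tracts. They have long, sparsely branched processes filled with intermediate filaments of GFAP and vimentin, whereas the protoplasmic astrocytes of grey matter wrap synapses and take up transmitter and potassium. CD44 is a receptor for hyaluronan, a glycan of the extracellular matrix, and is a known marker of the fibrous form. Deep cerebellar nuclei lie within the cerebellar white matter, so both forms can be met there.

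Of the 1348 fibrous astrocytes, 930 (69.0%) had a count of Gfap, which encodes the main astrocytic intermediate filament protein. Mamdc2 was counted in 844 (62.6%), Cd44 in 507 (37.6%), Cnmd, which encodes chondromodulin, in 400 (29.7%) and Ccdc3 in 352 (26.1%). A single marker gene carried 296 of the nuclei over the gate, 589 had 2 different markers, 318 had 3, 120 had 4 and 25 had all 5. The nuclei were chosen by these counts, which are therefore given as description. Just inside the gate stood 408 nuclei with a marker sum of 2, and just outside it the 833 nuclei with a sum of 1. Summed over fibrous astrocytes, Gfap reached 678, 652, 831 and 521 CPM (counts scaled to 1e+06 per library sum) in Ucn3-Cre replicates 1 and 2 and vGluT2-Cre replicates 1 and 2. In oligodendrocyte nuclei of the same libraries it averaged 15.8 CPM.

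The astrocyte identity was checked on genes the gate did not use. Slc4a4, the sodium bicarbonate cotransporter of astrocytes, stood at 3767 ± 318 CPM (SD, n = 4 libraries) in fibrous and 4212 ± 274 CPM in marker-negative astrocytes, against a mean of 13.9 CPM in oligodendrocyte and 16.0 CPM in neuronal nuclei. Ntsr2, an astrocytic neurotensin receptor, stood at 480 ± 75.7 CPM in fibrous and 602 ± 61.2 CPM in marker-negative astrocytes and at 14.2 CPM in oligodendrocyte nuclei. Both genes place the fibrous astrocytes with astrocytes. Bergmann glia, the radial astrocytes of the cerebellar cortex, have no gate of their own here. At least 2 of 5 measured Bergmann glia markers had a count in 42.0 to 63.1% of fibrous astrocytes and in 37.9 to 55.6% of marker-negative astrocytes of a library, and their summed level was 840 to 1048 and 695 to 854 CPM. Share and summed level were both higher in fibrous astrocytes in each library, with 3 of the 5 markers higher and 2 lower.

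Both astrocyte groups held some nuclei that also carried RNA of another cell class. At least 3 markers of another class were counted in 73 of 1348 fibrous astrocytes, led by mural markers in 39 and endothelial markers in 20. The same held for 340 of 2753 marker-negative astrocytes, led by oligodendrocyte precursor markers in 161 and mural markers in 89. The classes counted were oligodendrocyte precursor, microglial, endothelial, mural, fibroblast, ependymal and neuronal, so oligodendrocyte markers did not count. A looser count of at least 2 markers, which took in oligodendrocyte markers, held for 800 fibrous and 1396 marker-negative astrocytes. The summed level of the 6 precursor markers was 218 to 358 CPM in fibrous and 461 to 951 CPM in marker-negative astrocytes, and all 6 were lower in the fibrous ones. Without the 73 and 340 nuclei above it was 204 to 257 against 113 to 169 CPM, with 5 of 6 higher. These markers were among those that chose the nuclei left out. The summed level of 8 neuronal markers was 200 to 226 against 206 to 451 CPM, although 5 of the 8 were higher in fibrous astrocytes. Snhg11, 1 of the 3 lower ones, averaged 12.3 against 133 CPM. Without the 73 and 340 nuclei above, the neuronal sum was 193 to 216 against 87.6 to 178 CPM, with 7 of 8 higher. The summed level of 6 endothelial markers was 295 to 622 against 123 to 775 CPM, with 5 lower in fibrous astrocytes. For 6 mural markers it was 361 to 696 against 373 to 634 CPM, with 3 higher and 3 lower. Without the 73 and 340 nuclei, endothelial and mural markers were each split, 3 higher and 3 lower. The endothelial sum was then 141 to 206 against 50.9 to 93.5 CPM, higher in fibrous astrocytes. The mural sum was 282 to 356 against 301 to 349 CPM. Endothelial and mural markers also helped choose the nuclei left out. With all nuclei, the summed level of 8 oligodendrocyte markers, 7 of them higher in fibrous astrocytes, was 1120 to 1329 against 778 to 974 CPM. Without the 73 and 340 nuclei above it was 1052 to 1325 against 745 to 859 CPM, again with 7 higher. No marker of these lists was at 0 in either group. Results that rest on such nuclei are given below with and without them.

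Fibrous astrocytes made up 22.3% of gated astrocytes in Ucn3-Cre replicate 1 (exact 95% Clopper-Pearson interval 19.9 to 24.9%, 255 of 1142), 22.9% in Ucn3-Cre replicate 2 (20.8 to 25.0%, 351 of 1536), 30.7% in vGluT2-Cre replicate 1 (28.1 to 33.5%, 363 of 1181) and 35.3% in vGluT2-Cre replicate 2 (32.4 to 38.2%, 379 of 1075). The intervals cover counting error only. The 2 Ucn3-Cre libraries were alike and both lay below the vGluT2-Cre libraries, by a mean of 10.4 percentage points. A two-sided exact permutation test over libraries gave p = 0.333, the smallest value that 2 against 2 libraries allow. The vGluT2-Cre libraries were also deeper. After each nucleus was thinned to 1000 counts, the shares were 12.3, 11.2, 15.6 and 12.7% in the same order and the difference shrank to 2.39 points (exact permutation p = 0.333). All shares fell, and both vGluT2-Cre libraries still lay above both Ucn3-Cre libraries. Only the marker sum was taken after thinning, while the astrocyte gate kept all counts. Free RNA can also add marker counts, and 0.211 to 0.923% of oligodendrocyte nuclei, with a median of 1629 to 2915 counts, reached a marker sum of 2.

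**Figure D1:**
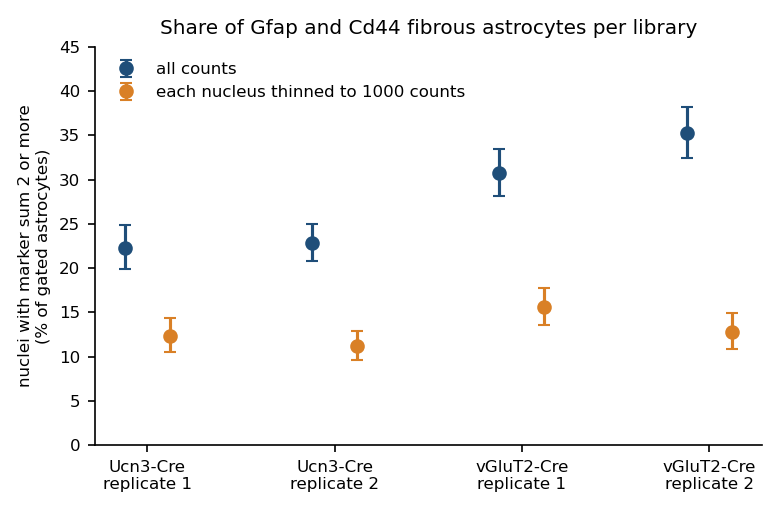
Share of gated astrocytes that were fibrous astrocytes (y axis, %) in each of the 4 libraries (x axis), from all counts (blue) and after thinning each nucleus to 1000 counts (orange); bars are exact 95% Clopper-Pearson intervals. With all counts both vGluT2-Cre libraries lie above both Ucn3-Cre libraries (30.7 and 35.3% against 22.3 and 22.9%). After thinning all shares are lower, and the vGluT2-Cre libraries still lie above (15.6 and 12.7% against 12.3 and 11.2%).

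Fibrous astrocytes differed from marker-negative astrocytes of the same libraries in a broad set of genes. Myoc, Bmp6, C4b, Efemp1, Vim and Zic4 were among the genes that were higher, and Gria1, Gria2, Lgr6 and Kcnj10 among those that were lower. Of the gene lists, that of white matter and reactive astrocytes had 14 of 21 tested genes higher, and that of protoplasmic and synapse-facing astrocytes 22 of 27 lower. Counts were summed per library and group and compared with edgeR's quasi-likelihood test with the library as block, and all 17 gating genes were left out. With an adjusted p under 0.05 (Benjamini-Hochberg over all genes tested), 2260 of 11093 genes were called (20.4%), 1139 higher (10.3%) and 1121 lower (10.1%) in fibrous astrocytes. When nuclei with 3 or more markers of another class were left out of both groups, a step added after the data had been seen, 2370 of 10626 were called (22.3%), 1260 higher (11.9%) and 1110 lower (10.4%), and 1871 of the 2260 were called again in the same direction. Oligodendrocyte markers did not count in this step, so it did not remove nuclei for oligodendrocyte RNA. The 5 marker genes were chosen with results of these nuclei known, so genes that vary with them were bound to differ. The adjusted p-values therefore describe how evenly a difference recurred over the 4 libraries. DESeq2 called 1251 genes, and edgeR without the library block called 991.

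Myoc, Bmp6, C4b and Efemp1, which encode secreted proteins, were among the 15 genes named for the highest fold change. Myoc encodes myocilin, a secreted glycoprotein. Its level in fibrous astrocytes was 41.9, 52.9, 28.7 and 18.9 CPM in Ucn3-Cre replicates 1 and 2 and vGluT2-Cre replicates 1 and 2, against 1.34, 1.18, 0 and 0 CPM in marker-negative astrocytes. The 4 fibrous values lay above all marker-negative values, which rested on 5 counts in all against 129 in fibrous astrocytes. The fitted log2 fold change was 5.69 ± 0.39 (SE; adjusted p = 1.43e-12). Bmp6, a ligand of the bone morphogenetic protein family, stood at 231, 238, 233 and 247 CPM against 15.5, 27.5, 16.8 and 15.1 CPM. The fibrous libraries were within a narrow band, 12.4-fold above the others (log2 3.63 ± 0.13, adjusted p = 5.83e-19). C4b, a complement component, stood at 341, 268, 306 and 202 CPM against 35.6, 35.8, 28.6 and 13.8 CPM (log2 3.30 ± 0.12, adjusted p = 6.49e-19). Efemp1, which encodes the matrix glycoprotein fibulin-3, stood at 148, 127, 141 and 124 CPM against 16.1, 14.6, 19.6 and 8.71 CPM (log2 3.21 ± 0.14, adjusted p = 8.35e-17). In GRCm38, Myoc lies at chr1:162639155-162649693, Bmp6 at chr13:38345107-38500302, C4b at chr17:34728380-34743882 and Efemp1 at chr11:28853204-28926743. None of these 4 genes overlapped between the groups, and without nuclei of other classes the log2 fold changes of Myoc, Bmp6 and C4b were 5.39, 3.64 and 3.27, and Efemp1 was 9.92-fold higher.

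The other genes named for the highest fold change encode proteins of various kinds. Pdzrn3, an E3 ubiquitin ligase with PDZ domains, stood at 111, 116, 155 and 128 CPM in fibrous and 7.40, 5.51, 14.6 and 7.79 CPM in marker-negative astrocytes (log2 3.88 ± 0.16, adjusted p = 8.33e-18). It was also high in mural nuclei, at a mean of 276 CPM, and its log2 fold change was 5.02 without nuclei of other classes. Sntg2, a syntrophin of the dystrophin complex, was higher by a log2 of 4.07 ± 0.31, and Flnc, the actin cross-linker filamin C, by 3.52 ± 0.32. Abcc12, an ABC transporter, stood at 102, 71.6, 73.1 and 63.7 CPM against 4.03, 3.54, 1.68 and 0.917 CPM, the next highest fold change after Myoc (log2 4.89 ± 0.24, adjusted p = 6.93e-16). Greb1l stood at 299, 277, 263 and 269 CPM against 37.0, 34.2, 25.8 and 14.7 CPM (log2 3.34 ± 0.13, adjusted p = 2.54e-18). Armc4, linked to dynein arms of motile cilia, was higher by a log2 of 3.76 ± 0.23, while the summed level of 5 measured ependymal markers was 17.6 to 25.4 CPM in fibrous and 9.43 to 17.7 CPM in marker-negative astrocytes and no fibrous astrocyte had 3 of them. St8sia2, which adds polysialic acid to NCAM, Rassf9 and Mybpc1, a myosin-binding protein C, were higher by log2 values of 3.63, 3.28 and 3.12. Each of these genes passed the test in the same direction without nuclei of other classes. Rassf9 was at a mean of 217 CPM in endothelial nuclei, and its log2 fold change was 4.08 without nuclei of other classes.

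Acta2 and Tagln, contractile genes of smooth muscle, complete the 15 genes named for the highest fold change. Acta2 stood at 67.4, 18.7, 180 and 40.3 CPM in fibrous against 18.2, 0, 5.60 and 7.79 CPM in marker-negative astrocytes (9.92-fold, adjusted p = 8.12e-10). Tagln stood at 20.0, 9.92, 90.9 and 23.4 CPM against 11.4, 0.393, 1.12 and 4.13 CPM, and its groups overlapped. Both were uneven between libraries and highest in vGluT2-Cre replicate 1. Both fell under the count filter once nuclei with 3 or more markers of another class were left out, and were then not tested.

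**Figure D2:**
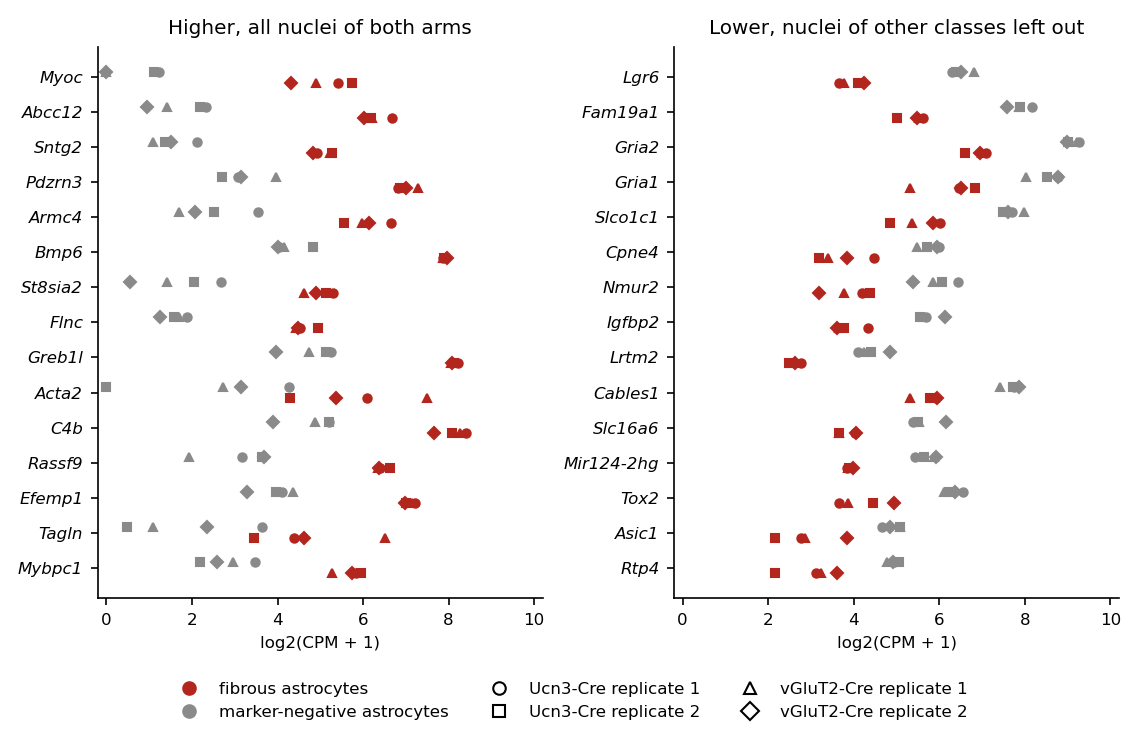
Level as log2(CPM + 1) (x axis) of the 15 genes with the highest fold change (left, all nuclei of both groups) and the 15 with the lowest (right, nuclei with 3 or more markers of another class left out) in fibrous (red) and marker-negative (grey) astrocytes; each symbol is a library. Red and grey symbols are separate in every row except Tagln, whose fibrous value of 9.92 CPM lies under a marker-negative value of 11.4 CPM.

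Promoters of these leading genes were searched for motifs of factors linked to astrocyte genes. RefSeq promoters (GRCm38.p6, 250 bases before to 50 after the start) were found for 10 of the 15 genes, 12 promoters in all. The motifs, read on both strands, were the NFI palindrome, the single NFI arm TTGGCA, which a palindrome also holds when its spacer opens with A, the STAT motif TTCNNNGAA, the AP-1 motif TGANTCA and the SOX core ACAAAG. None of the 12 held an NFI or STAT motif, which 0.0365% (palindrome), 14.1% (single arm) and 8.30% (STAT) of all 32851 promoters hold. The AP-1 motif was found in 1 promoter (8.33%, against 7.81% of all) and the SOX core in 1 (8.33%, against 18.7% of all). Those 2 promoters are printed because they are the only ones with a match, with the match in capitals. Myoc lies on the plus strand at chr1:162638900-162639199 and Efemp1 on the plus strand at chr11:28852955-28853254.
Myoc: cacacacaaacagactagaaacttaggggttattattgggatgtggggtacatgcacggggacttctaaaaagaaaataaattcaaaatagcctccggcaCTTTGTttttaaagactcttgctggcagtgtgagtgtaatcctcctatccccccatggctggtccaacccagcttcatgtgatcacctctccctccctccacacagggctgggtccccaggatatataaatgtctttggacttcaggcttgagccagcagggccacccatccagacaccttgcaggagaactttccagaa
Efemp1: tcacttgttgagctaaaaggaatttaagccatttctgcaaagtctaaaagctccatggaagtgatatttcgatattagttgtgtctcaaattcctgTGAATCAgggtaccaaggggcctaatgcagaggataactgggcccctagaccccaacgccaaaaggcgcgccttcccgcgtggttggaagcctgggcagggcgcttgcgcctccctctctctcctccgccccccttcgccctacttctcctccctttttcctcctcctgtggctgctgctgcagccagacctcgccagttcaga

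Genes of white matter and reactive astrocytes, a list of 26 of which 21 were tested, were mostly higher: 14 rose, 2 fell and 5 did not pass, with a median log2 fold change of 0.77 against 0 over all genes tested. Beside this and the list counts below stand the shares over all genes tested, 10.3% higher and 10.1% lower. The list was drawn up with earlier results of these data known and its direction is not independent evidence. Vim, the intermediate filament protein vimentin, stood at 126, 116, 138 and 148 CPM in fibrous against 22.9, 25.6, 9.53 and 34.8 CPM in marker-negative astrocytes (log2 2.47 ± 0.16, adjusted p = 4.44e-13). Endothelial nuclei held it at a mean of 440 CPM, and without nuclei of other classes its log2 fold change was 3.45. Slc38a1, a glutamine transporter, stood at 938, 890, 840 and 972 CPM against 301, 310, 209 and 266 CPM (log2 1.76 ± 0.07, adjusted p = 4.24e-18). The secreted proteins clusterin (Clu, log2 1.43 ± 0.06), angiotensinogen (Agt, 1.40 ± 0.06) and apolipoprotein E (Apoe, 0.89 ± 0.05) were higher as well, Apoe from 4147 ± 375 to 7660 ± 524 CPM. Id3, a target of BMP signalling, rose by a log2 of 0.93, Serpina3n, a marker of reactive astrocytes, by 0.84, and Sox9, an astrocyte transcription factor, by 0.67. Id3 was at 620 CPM in endothelial nuclei, and its log2 fold change was 1.04 without nuclei of other classes. Igfbp2 fell by 1.06 and Fam107a by 1.41 on the log2 scale. The Igfbp2 call was lost in edgeR without nuclei with 2 Bergmann glia markers (log2 -0.51, adjusted p = 0.468) and without the library block (adjusted p = 0.0905). S100b, at 118 ± 22.2 against 110 ± 9.41 CPM, and Prdx6, at 376 ± 64.8 against 362 ± 40.7 CPM, did not pass the test.

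Protoplasmic and synapse-facing astrocyte genes moved the other way: 22 of 27 fell, 1 rose and 4 did not pass, with a median log2 fold change of -0.49, and the counts were the same without nuclei of other classes. Gria1, an AMPA receptor subunit, stood at 89.2, 107, 39.5 and 79.4 CPM in fibrous against 405, 327, 233 and 346 CPM in marker-negative astrocytes (log2 -2.06 ± 0.10, adjusted p = 1.27e-15). Lgr6, a receptor for R-spondins, stood at 12.7, 15.4, 14.8 and 16.9 CPM against 74.0, 74.3, 101 and 72.0 CPM (log2 -2.37 ± 0.16, adjusted p = 1.39e-12). Neither gene overlapped between the groups. Of the potassium channel genes in the list, Kcnd2, a Kv4 channel subunit, fell by a log2 of 1.39, and the inward rectifiers Kcnj10 and Kcnj16 fell by 1.04 each. Genes of transmitter uptake and recycling fell by less, Glul (glutamine synthetase) from 490 ± 89.3 to 268 ± 53.8 CPM and Slc6a9 (the glycine transporter GlyT1) by a log2 of 0.58. Slc7a10, a carrier of small neutral amino acids and D-serine, fell by 1.32. Gpc6, a glypican secreted by astrocytes, was the member that rose, by a log2 of 0.38.

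**Figure D3:**
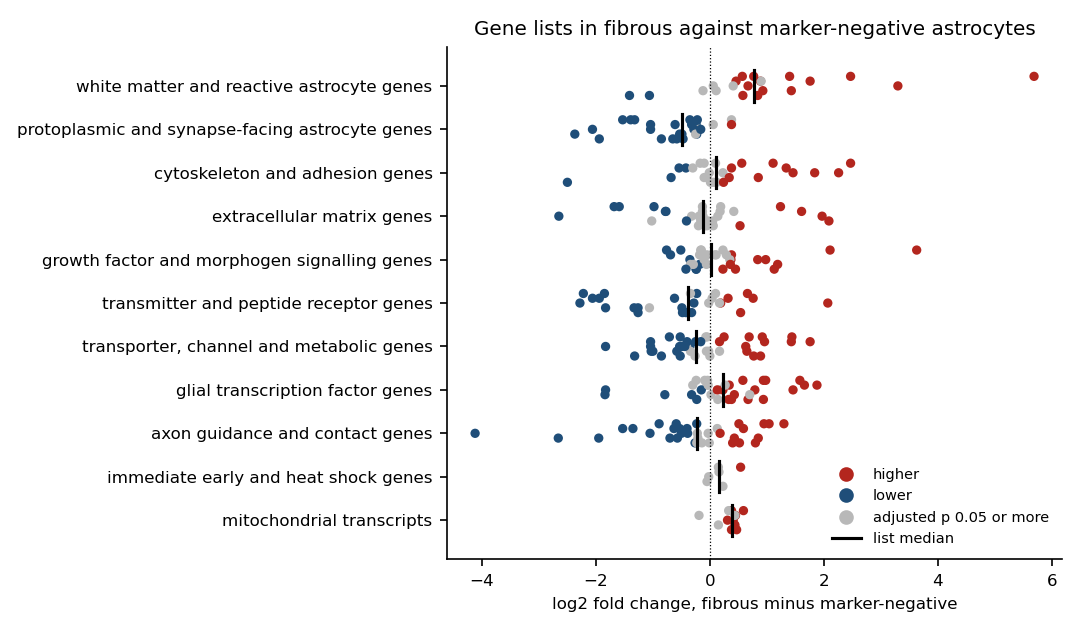
Log2 fold change of fibrous minus marker-negative astrocytes (x axis) for each tested gene of the 11 lists (rows), with genes higher (red), lower (blue) or with an adjusted p of 0.05 or more (grey), and the list median (black bar). The white matter list has a median of 0.77 and the protoplasmic list one of -0.49, while most other lists hold genes on both sides of 0.

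Transmitter and peptide receptor genes fell in 16 of 28 cases and rose in 6 (median log2 -0.38). Gria2, the AMPA receptor subunit that limits calcium entry, stood at 138, 92.6, 134 and 118 CPM against 628, 560, 641 and 527 CPM (log2 -2.28 ± 0.08, adjusted p = 5.83e-19). Its groups did not overlap. Gria4, another AMPA receptor subunit, fell by 1.26 and Grin2c, an NMDA receptor subunit, by 1.26 on the log2 scale. Grm5, a metabotropic glutamate receptor of the protoplasmic list, fell by 1.94, and by 1.17 without nuclei of other classes, and was at 1703 CPM in precursor nuclei. Grm7, a metabotropic receptor known from presynaptic terminals, rose from 87.4 to 376 CPM in the mean (log2 2.07 ± 0.08, adjusted p = 1.11e-17). Grm7 was higher still in oligodendrocyte precursor nuclei, at 697 CPM, and its log2 fold change was 3.22 without nuclei of other classes. Gabrg3, a GABA-A receptor subunit, fell by 2.22, and by 1.36 without nuclei of other classes. Of the receptors for noradrenaline and endothelin, Adra1a rose by 0.76 and Ednrb by 0.54, and Adrb1 fell by 1.33.

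Transporter, channel and metabolic genes were divided, with 12 of 39 higher and 18 lower (median log2 -0.25). Slc7a11, the cystine-glutamate exchanger, stood at 432, 324, 560 and 616 CPM against 176, 131, 192 and 213 CPM (log2 1.44 ± 0.07, adjusted p = 9.70e-16). Slc16a1, a lactate transporter, rose by 0.92 and Kcnn2, a calcium-activated potassium channel, by 0.65. Slco1c1, a thyroid hormone transporter, stood at 76.5, 39.7, 43.5 and 96.3 CPM against 218, 190, 242 and 255 CPM (log2 -1.83 ± 0.12), and the cation channel Trpm3 fell by 1.03. Slco1c1 was at 1987 CPM in endothelial nuclei, and its log2 fold change without nuclei of other classes was -2.16.

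Growth factor and morphogen genes rose in 11 and fell in 8 of 32 cases (median log2 0.02), and rose in 12 and fell in 13 of 32 without nuclei of other classes (median -0.04). Besides Bmp6, the BMP-responsive gene Id4 stood at 230, 185, 203 and 176 CPM against 53.1, 39.7, 47.1 and 43.6 CPM (log2 2.11 ± 0.10, adjusted p = 2.52e-16). The BMP receptors Bmpr1a and Bmpr1b rose by 0.38 and 0.37, and the ligands Tgfb2 and Pdgfd by 1.19 and 1.13. Ptch1, the hedgehog receptor and a hedgehog target, fell by 0.76 and Fgfr3, a receptor for fibroblast growth factors, by 0.51. The transcription factor list rose in 16 and fell in 6 of 33 cases (median log2 0.23). Zic4, of the zinc finger family of the cerebellum, stood at 193, 132, 119 and 132 CPM against 45.7, 37.0, 32.5 and 38.0 CPM (log2 1.88 ± 0.11), and Zic2, Zic5 and Zic1 rose by 1.58, 1.46 and 0.94. Hopx rose by 1.66 ± 0.20. Etv4 and Etv5, ETS factors known as targets of FGF receptor signalling, fell by 1.83 and 1.84, Etv5 from 126 to 35.5 CPM in the mean. Etv4 is also among the Bergmann glia markers.

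Cytoskeletal genes rose in 11 of 26 cases and fell in 4 (median log2 0.11). Sorbs2, an actin-linked adaptor, stood at 461, 355, 425 and 288 CPM against 73.3, 78.3, 60.5 and 95.4 CPM (log2 2.26 ± 0.12, adjusted p = 4.00e-15). Endothelial nuclei held it at a mean of 1245 CPM, and without nuclei of other classes its log2 fold change was 2.70. Plec, which links intermediate filaments to other filaments and to junctions, rose by 1.84, the actin cross-linker Flna by 1.46 and Utrn, which encodes utrophin, by 0.85. Utrn was at 1939 CPM in endothelial and 1436 CPM in mural nuclei, and its log2 fold change was 0.81 without nuclei of other classes. Dmd, which encodes dystrophin, fell by 0.68. The sarcoglycan Sgcd fell by 2.50, and without nuclei of other classes its log2 fold change was -0.32 (adjusted p = 0.414). Oligodendrocyte precursor nuclei held it at a mean of 1524 CPM. Matrix genes rose in 5 and fell in 7 of 29 cases (median log2 -0.12). The protease Adamts9 stood at 637, 626, 750 and 780 CPM against 208, 159, 179 and 174 CPM (log2 1.97 ± 0.07), and Adamtsl3 rose by 2.09 ± 0.28. The integrin Itgav fell by 0.98 and the laminin chain Lama4 by 1.68. Lama4 was at 334 CPM in mural and 206 CPM in endothelial nuclei, was not tested without nuclei of other classes, and was not called by edgeR without the library block (adjusted p = 0.11). Tnr, the matrix glycoprotein tenascin-R and a precursor marker, fell by 2.65, and by 0.55 without nuclei of other classes. Vcan, another precursor marker, fell by 0.41, and its log2 fold change was 1.52 without nuclei of other classes.

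Axon guidance and contact genes fell in 17 and rose in 11 of 35 cases (median log2 -0.23, and 0.06 without nuclei of other classes). Ntn1, the guidance cue netrin-1, stood at 20.0, 12.1, 22.7 and 26.0 CPM against 78.7, 70.4, 86.9 and 85.3 CPM (log2 -1.95 ± 0.15), and the receptor Robo1 fell by 1.53 and its ligand Slit2 fell by 1.35. These 3 genes stayed lower without nuclei of other classes, with log2 fold changes of -1.83, -1.24 and -1.35. The netrin receptor Dcc, with a log2 of -2.66, had one of 0.04 without them (adjusted p = 0.961). Sema6d, a semaphorin, rose by 0.95 and Epha4, an ephrin receptor, by 0.59. Of 6 tested immediate early and heat shock genes, Jund rose, by 0.54, and none fell. The Jund call was lost with DESeq2 (adjusted p = 0.101), without nuclei with 2 Bergmann glia markers (0.0727) or 2 markers of another class (0.400), without the library block (0.140) and with a minimum fold of 1.5. Of 12 tested mitochondrial transcripts 8 rose and none fell (median log2 0.39). The median share of mitochondrial counts per nucleus was 0.142, 0.229, 0.283 and 0.301% in fibrous and 0.0816, 0.148, 0.219 and 0.219% in marker-negative astrocytes. When the marker sum was taken after thinning to 1000 counts, mt-Cytb, mt-Nd4, mt-Nd1 and mt-Co2 had log2 fold changes of 0.20, 0.20, 0.27 and 0.14 and none passed the test. The part of nuclear damage or attached cytoplasm in these values was not tested.

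The 15 genes with the most negative fold change among all nuclei were led by genes of precursor and neuronal nuclei. Neto1, Tenm2, Nxph1, Nrg3, Snhg11, Kcnh8, Lrfn5, Dscam, Pdgfra, Opcml, Fam19a2, Itga9, Kcnip1, Dscaml1 and Pcdh15 had log2 fold changes from -8.19 to -3.03. Pdgfra, the growth factor receptor that defines oligodendrocyte precursors, stood at 5.46, 5.51, 24.7 and 7.16 CPM in fibrous against 55.1, 126, 133 and 133 CPM in marker-negative astrocytes (log2 -3.44 ± 0.20, adjusted p = 5.12e-14). In oligodendrocyte precursor nuclei it averaged 1744 CPM. Neto1, an auxiliary kainate receptor subunit, had no count in any fibrous library and 185 counts in marker-negative astrocytes, at least 29.6-fold lower against a floor of 3 counts over the group, and averaged 337 CPM in precursor nuclei. Snhg11, a neuronal long non-coding RNA, stood at 32.8, 6.61, 0 and 9.76 CPM against 77.3, 267, 47.1 and 140 CPM and averaged 12071 CPM in neuronal nuclei. All 15 were higher in precursor or neuronal nuclei than in either astrocyte group. Without nuclei that carried 3 or more markers of another class, 11 of them fell under the count filter and were not tested. Of the other 4, Tenm2 kept a log2 of -4.15, Opcml and Pcdh15 had log2 values of 0.10 and 0.15, and Dscam was higher in fibrous astrocytes, at 1.11 (adjusted p = 0.0135). Pdgfra and Snhg11 are themselves among the markers that chose the nuclei left out.

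**Figure D4:**
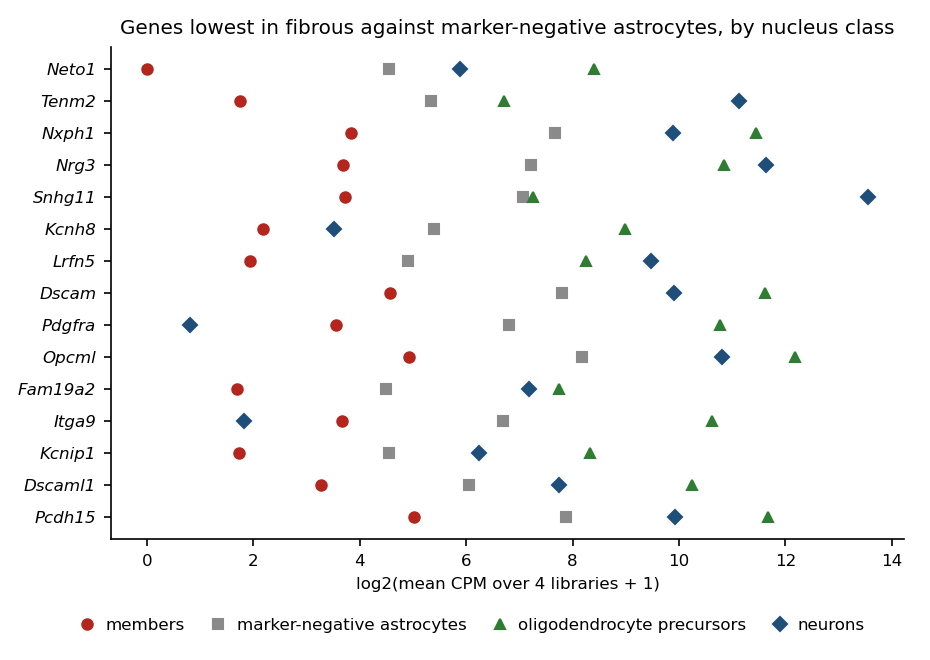
Mean level over 4 libraries as log2(CPM + 1) (x axis) of the 15 genes with the most negative fold change among all nuclei, in fibrous astrocytes (red), marker-negative astrocytes (grey), oligodendrocyte precursor nuclei (green) and neuronal nuclei (blue). Every row has precursor or neuronal nuclei to the right of both astrocyte groups, such as Pdgfra at 1744 CPM in precursors and Snhg11 at 12071 CPM in neurons.

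Without nuclei of other classes, the genes with the most negative fold change by the same rule were led by Lgr6 (log2 -2.60 ± 0.17) and Fam19a1 (-2.43 ± 0.11), a secreted chemokine-like protein. These genes were chosen after the values had been seen. Gria2 and Gria1 followed at -2.21 and -2.19, then Slco1c1 at -2.16, Cpne4, a calcium-binding copine, at -2.14, Nmur2, a neuromedin U receptor, at -2.10, and Igfbp2, a binding protein of insulin-like growth factors, at -2.09. Fam19a1 stood at 47.9, 31.2, 45.3 and 43.8 CPM in fibrous against 287, 234, 231 and 190 CPM in marker-negative astrocytes, with no overlap. Nmur2 stood at 17.3, 19.7, 12.6 and 8.16 CPM against 85.4, 66.1, 57.0 and 41.1 CPM. Lrtm2, Cables1, Slc16a6, Mir124-2hg, Tox2, Asic1 and Rtp4 complete the 15, with log2 values between -2.04 and -1.86. Of these 15 genes, 8 had a higher mean level in another class than in marker-negative astrocytes, with the highest mean for Fam19a1, Gria2 and Asic1 in precursor, Slco1c1 and Rtp4 in endothelial, Cpne4 and Mir124-2hg in neuronal and Slc16a6 in microglial nuclei. The other 7, among them Lgr6, Gria1 and Nmur2, did not. In this comparison 11 of the 15 genes named as higher were the same as among all nuclei, and Anxa2, Mkx, Vim and Adamtsl3 took the place of C4b, Acta2, Tagln and Mybpc1.

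The level of the leading genes was also read by the marker sum. The genes were chosen for a difference between sum 0 and sums of 2 or more, so the direction of the trend was fixed by the choice and the values are a description. All 15 genes named as higher had, in nuclei with a marker sum of 1, a mean level between that of sum 0 and that of the fibrous astrocytes, and so had all 15 lower genes of the comparison without other classes. From sum 0 over 1, 2 and 3 to 4 or more, the mean level rose at every step for 12 of the 15 higher genes and fell at every step for 10 of the 15 lower ones of the comparison without other classes. It fell at every step for 0 of the 15 genes named as lower among all nuclei, of which 1 fell from sum 3 to sum 4 or more. Bmp6 went from 18.4 CPM at sum 0 to 51.8, 184, 240 and 278 CPM, and Gria2 from 575 to 409, 234, 126 and 53.3 CPM. At a sum of 4 or more, Lgr6 was at 5.49 CPM in the mean, against 78.7 CPM at sum 0. The marker sum of a nucleus also depends on its depth, and fibrous astrocytes had fewer counts than marker-negative ones in each library, with medians of 1971, 2386, 2425 and 3754 against 2217.5, 2626, 2746 and 4101.

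**Figure D5:**
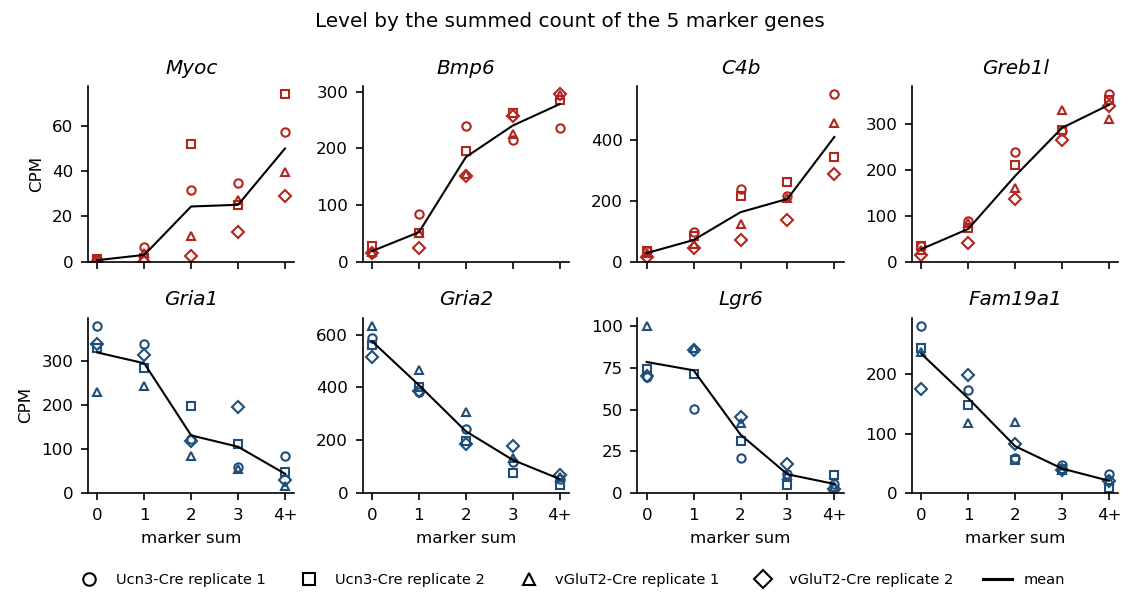
Level in CPM (y axis) of 4 genes higher and 4 genes lower in fibrous astrocytes, by the summed count of the 5 marker genes in a nucleus (x axis, 0 to 4 or more); symbols are libraries and the line is their mean. Bmp6 climbs from 18.4 to 278 CPM in the mean and Gria2 falls from 575 to 53.3 CPM.

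Among the fibrous astrocytes, those with a count of Cd44 were compared with those without. Cd44 is itself 1 of the 5 marker genes, so nuclei without it had to pass the gate on the other markers. Genes that vary with the markers were therefore bound to differ. The adjusted p-values describe how evenly a difference recurred over the 4 libraries. Marker sums of carriers and others were not compared. Cd44 carriers numbered 77, 111, 146 and 173 in Ucn3-Cre replicates 1 and 2 and vGluT2-Cre replicates 1 and 2, or 30.2, 31.6, 40.2 and 45.6% of the fibrous astrocytes. Their median depth (1950, 2300, 2360 and 3734 counts) was close to that of the others (1979, 2410, 2449 and 3761.5). In edgeR's quasi-likelihood test with the library as block, 227 of 7972 genes were called (2.85%), 108 higher (1.35%) and 119 lower (1.49%) in carriers. Without nuclei of other classes 156 of 7626 were called (2.05%), 69 higher (0.905%) and 87 lower (1.14%), and 121 of the 227 were called again. Without vGluT2-Cre replicate 1 or 2 the count was 103 or 123, and without the library block it was 2.

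Efemp1 was higher in Cd44 carriers in each library, at 202, 188, 217 and 178 CPM against 130, 104, 99.7 and 85.4 CPM (log2 0.96 ± 0.14, adjusted p = 1.40e-06), and without nuclei with 3 or more markers of another class (log2 0.85, adjusted p = 1.20e-05). The call was lost in edgeR without nuclei with 2 or more markers of another class, oligodendrocytes included (log2 0.57, adjusted p = 0.270), and without the library block (adjusted p = 0.0512). It was also among the genes higher in fibrous against marker-negative astrocytes. Sgcz, a sarcoglycan, and Unc5c, a netrin receptor, rose by 0.80 and 0.77, with adjusted p-values of 0.000342 and 0.00947 in edgeR without nuclei with 3 or more markers of another class. Sgcz lost its call in edgeR without nuclei with 2 or more markers of another class, oligodendrocytes included (adjusted p = 0.281). Sgcz also lost it without Ucn3-Cre replicate 2 (0.0732) and without vGluT2-Cre replicate 1 (0.0879), and Unc5c without vGluT2-Cre replicate 1 (0.130). Neither was called without the library block (0.982 and 0.583). Cpne6, Cabcoco1, Adamtsl3, Ilvbl and Armc4 rose by 1.29, 1.01, 0.98, 0.78 and 0.74. Without nuclei of other classes Cabcoco1, Adamtsl3, Ilvbl and Armc4 had adjusted p-values of 0.0807, 0.0850, 0.0557 and 0.132, and Cpne6 was not tested. Cpne6 also lost its call without Ucn3-Cre replicate 2 (adjusted p = 0.443) or vGluT2-Cre replicate 1 (0.298).

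The genes with the largest decrease in Cd44 carriers were vascular. Mgp, Acta2, Myl9, Cldn5, Flt1, Ly6a, Rgs5 and Ebf1 had log2 fold changes from -4.44 to -3.08. Cldn5, the tight junction protein of brain endothelium, stood at 6.53, 10.9, 0 and 14.8 CPM in carriers against 65.0, 54.4, 125 and 160 CPM in the others, and at 3723 CPM in endothelial nuclei. The summed level of 6 endothelial markers was 128 to 282 CPM in carriers and 337 to 898 CPM in the others, with 5 of 6 lower in carriers, and that of 6 mural markers 262 to 389 against 400 to 945 CPM, with 4 of 6 lower. All 8 genes fell under the count filter and were not tested once nuclei with 3 or more markers of another class were left out. One fibrous astrocyte in vGluT2-Cre replicate 2 had 54074 counts, against a highest count of 5420 to 13515 in the other libraries.

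The Cre lines were compared within fibrous astrocytes. Of 10191 genes 0 (0%) were called by edgeR's quasi-likelihood test, 270 had an unadjusted p under 0.05, and DESeq2 called 7. On simulated counts with 2 against 2 libraries, the edgeR test recovered 34% of genes changed 2-fold and 91% of genes changed 4-fold. The simulated spread between libraries was set in advance and not estimated from these data, and the changed genes were among the better counted. Most 2-fold differences were missed even there, and the 0 calls do not exclude differences of either size. Myoc stood at 41.9 and 52.9 CPM in the Ucn3-Cre against 28.7 and 18.9 CPM in the vGluT2-Cre libraries (log2 1.04, unadjusted p = 0.0129, adjusted p = 0.9996). Bmp6, Efemp1, Rassf9 and Armc4 differed between the lines by a log2 of -0.04, 0.04, 0.17 and 0.09 (Ucn3-Cre minus vGluT2-Cre). YFP, the reporter transcript, stood at 29.7 and 38.5 CPM against 114 and 136 CPM (log2 -1.85 ± 0.24, adjusted p = 0.658) and was singled out after its values were seen. Whether free RNA of labelled neurons adds to it was not tested.

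The fibrous against marker-negative difference was also compared between the lines, as an interaction of group and line. It was called for 0 of 11093 genes (0%) by edgeR's quasi-likelihood test, with 402 at an unadjusted p under 0.05. Among the 15 genes named as higher, the log2 difference in Ucn3-Cre minus that in vGluT2-Cre libraries ranged from -2.93 for Myoc (unadjusted p = 0.0564), which had no count in marker-negative astrocytes of the vGluT2-Cre libraries, to 0.49 for Pdzrn3. Left-out libraries gave 1 to 17 calls, 17 of them without Ucn3-Cre replicate 2.

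Between the sexes 6 of 10191 genes were called (0.0589%), 2 higher in females (0.0196%) and 4 lower (0.0393%), all on the sex chromosomes. Without nuclei of other classes 7 of 9856 were called (0.071%), 3 higher (0.0304%) and 4 lower (0.0406%). Xist, which silences an X chromosome in females, stood at 4218 and 4279 CPM in the female and 0 and 0 CPM in the male libraries (adjusted p = 0.000396), and its antisense partner Tsix at 236 and 164 CPM against 0 and 0 CPM (adjusted p = 0.0410). Strand use in counting is not given in the sources used here, so Xist and Tsix reads cannot be told apart. The Y-linked genes Ddx3y, Eif2s3y, Kdm5d and Uty stood at 98.4 and 143, 152 and 223, 65.6 and 65.9, and 161 and 258 CPM in the male libraries, and at 1.86 CPM or less in the female ones. These values match the sex in the labels of all 4 libraries. An unadjusted p under 0.05 was found for 234 genes, DESeq2 called 13, and between 1 and 54 were called when 1 library was left out. The 15 genes named as higher all had an adjusted p of 0.9995 between the sexes.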

How the data were processed

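Single-nucleus RNA libraries of the deep cerebellar nuclei were compared, 2 per Cre line. Cell Ranger 3.1.0, Seurat 3.2 and mm10 are named in the submitters' processing notes. The deposited values are expected counts per gene and nucleus (fractional). They were rounded to whole counts, and the totals were 98.4 to 99.4% of those rounded up. Rounded totals per library were 9645649 to 19850830. Doublets were not called here. Nuclei with 3 or more markers of another class, oligodendrocytes not among the classes, were left out as an alternative instead.

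The fibrous astrocytes, their markers and all gene lists were chosen with earlier results of these data known. Counts were summed per library and group and fitted with edgeR 4.0.16 in R 4.3.3 (filterByExpr, TMM, quasi-likelihood test, library as block for comparisons within libraries), and p-values were adjusted by Benjamini-Hochberg across every tested gene. DESeq2 1.42.0 was an alternative. Standard errors were approximated as the log2 fold change over the square root of F. The 17 gating genes stayed in library sizes and out of tests. Each library is 1 sample, and whether it pools animals is not given in the sources used here, so p-values measure the spread between these libraries.

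Named were the 15 genes with the largest log2 fold change in each direction (adjusted p under 0.05, same direction in 4 of 4 libraries, at least 20 CPM in the higher group, no gene models), the 4 of each list with the largest change, and 8 in each direction for Cd44. Other list members were named for their role after their values were seen. Some list members are counted but not reported here by name. The script was tested on simulated counts for 3 comparisons: for fibrous against marker-negative astrocytes 88% of 2-fold and 100% of 4-fold changes were recovered among 10845 genes. The comparison of Cd44 carriers gave 56 and 86% among 7653 genes. The simulated spread between libraries was set in advance and not estimated from these data. The changed genes were drawn from those above 20 CPM in the mean, so these percentages need not hold for the real tests. Replicate numbers are not stated to pair the libraries and were not used as pairs in the main fits. Deviations of same-numbered libraries correlated at 0.056 over 10191 genes, from 2 pairs. Same-numbered libraries were of opposite sex, so this value cannot settle whether they were paired. Gene coordinates are from GRCm38, and promoters from RefSeq GRCm38.p6.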

Additional observations from a re-analysis of the deposited data

How the results depend on the processing

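The 2260 genes called between fibrous and marker-negative astrocytes became 1251 with DESeq2, 1330 without nuclei with 2 Bergmann glia markers, 1283 without nuclei with 2 markers of another class, 991 with no replicate block (the library left out as a block) and 646 with a minimum fold of 1.5. Leaving out 1 library gave 1745 to 2118. The 227 calls for Cd44 carriers became 51 without nuclei with 2 markers of another class, 346 with no filter on low counts and 2 with no replicate block, and 103 to 254 with 1 library left out. Between the Cre lines, 0 calls became 7 with DESeq2, 1 with only genes counted in every sum, 1 with no filter and 0 to 42 with 1 library left out (17 without vGluT2-Cre replicate 1 and 42 without replicate 2). Between the sexes, 6 became 13 with DESeq2, 0 with only genes counted in every sum, 1 with values rounded up and 1 to 54 with 1 library left out (54 without Ucn3-Cre replicate 2). The interaction went from 0 to between 1 and 17. With the replicate number as block, the lines gave 0 and the sexes 5 calls. In these left-out fits of line and sex, 1 group has a lone library that is assumed to vary like the others. The cause of these shifts was not tested.

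Without nuclei with 3 markers of another class, Dscam turned to 1.11, Opcml to 0.10, Pcdh15 to 0.15 and Dcc to 0.042 on the log2 scale. Of all named genes over all alternatives, 1370 values kept direction and side of the threshold, 63 kept the direction only and 4 reversed. An alternative in which a gene was not tested gave no value and is not counted. Acta2 and Tagln without nuclei of other classes are such cases. Among the 15 genes named as higher, over 18 alternatives, direction and side were kept in 256 of 257 values, the exception being Tagln in edgeR with no replicate block (adjusted p = 0.0508). Among the 16 genes named for Cd44 carriers, over 10 alternatives, 95 of 135 values kept the call and 40 lost it. Among the list genes 655 of 676 kept it, 20 lost it and 1 reversed. The share difference between the lines was -2.39 to -12.7 points under every alternative run, with 1 library left out -8.15 to -12.7 points.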

Other observations

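Without nuclei that carried 3 or more markers of another class, further genes stood higher in fibrous than in marker-negative astrocytes. These were picked after their values were seen and are given as values. Anxa2, which encodes the membrane-binding annexin A2, stood at 19.2, 28.9, 25.3 and 23.0 CPM in fibrous astrocytes of Ucn3-Cre replicates 1 and 2 and vGluT2-Cre replicates 1 and 2, against 5.11, 0.456, 0 and 0.622 CPM in marker-negative ones (log2 4.14 ± 0.40). Mkx, a homeobox factor known from tendon, stood at 61.4, 76.3, 75.8 and 82.4 CPM against 8.76, 7.75, 6.41 and 3.73 CPM (log2 3.48 ± 0.20). The groups did not overlap for either gene. Among axon guidance and contact genes, the semaphorin Sema3d had a log2 fold change of 0.85 among all nuclei and 2.80 without nuclei of other classes, the synaptic adhesion gene Lrrtm3 0.80 and 2.14, and the semaphorin receptor Nrp2 1.04 and 2.05. Sema3d was at a mean of 674 CPM in oligodendrocyte precursor nuclei.

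Within fibrous astrocytes, Mgp stood at 16.7 and 17.0 CPM in the Ucn3-Cre and 63.9 and 56.6 CPM in the vGluT2-Cre libraries, and Ebf1 at 29.7 and 33.9 against 95.3 and 112 CPM, each with an adjusted p of 0.658 in edgeR's quasi-likelihood test. Both were also among the genes lower in Cd44 carriers. In mural nuclei Mgp averaged 676 and Ebf1 4001 CPM. The summed level of 6 mural markers in fibrous astrocytes was 361 and 426 CPM in the Ucn3-Cre and 437 and 696 CPM in the vGluT2-Cre libraries, and its part in the difference was not tested.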
